A study of Mus musculus with 48 samples.

Results

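Transcription factors that act on Cyp7a1, or on one another in its control, were measured in mouse liver after a change in the protein-to-carbohydrate ratio of a high-fat diet. Cyp7a1 encodes cholesterol 7-alpha-hydroxylase, the rate-limiting enzyme of bile acid synthesis. The factors were 10 genes taken by symbol (Nr0b2, Nr1h4, Nr1h3, Nr1i2, Nr1i3, Nr5a2, Hnf4a, Onecut1, Prox1 and Foxo1), of 18193 genes that the array names. They were read through every probe set that carries the symbol alone, which gave 23 of 45037 probe sets tested. Nr5a2, Hnf4a and Foxo1 had 4 probe sets each, Prox1 had 3, Nr1i2 and Onecut1 had 2, and the other members had 1.

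Bile acids that return to the liver bind FXR, the nuclear receptor encoded by Nr1h4, which induces Nr0b2. The product of Nr0b2, SHP, binds no DNA of its own and represses Cyp7a1 through LRH-1 (Nr5a2) and HNF4A (Hnf4a), both of which bind the Cyp7a1 promoter. LXR-alpha (Nr1h3) senses oxysterols and activates Cyp7a1 in rodents, whereas the xenobiotic receptors PXR (Nr1i2) and CAR (Nr1i3) are known as repressors of Cyp7a1. HNF6 (Onecut1) and FOXO1 (Foxo1) act on hepatic genes of bile acid and glucose metabolism, and PROX1 (Prox1) is a corepressor that binds LRH-1 and HNF4A.

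All mice were male C57BL/6J and had eaten the HFHC diet (L-P/C-HF in the study, a high-fat diet with little protein relative to carbohydrate) for 10 weeks. Some then ate the HPHC diet (H-P/C-HF, with more protein and less carbohydrate at the same fat), the rest stayed on HFHC, and livers were taken after 2-d or 4-wk. Before the diets were assigned at random, mice with the greatest glucose excursion had been picked, per the study's methods, and the 4-wk mice were also older at death, so that duration and age cannot be told apart. Each of the 4 groups held 12 mice with 1 array each. Array B25 of the HPHC 2-d group, an outlier in the study's quality tests, was left out, so that n was 12 (HFHC 2-d), 11 (HPHC 2-d), 12 (HFHC 4-wk) and 12 (HPHC 4-wk).

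Levels are log2 values from RMA, a method that corrects the background, normalizes between arrays and summarises the probes of a set. The median of an array was 6.73 to 6.91, and precision is limited by how many arrays there were. The mean of 8 hepatocyte markers was between 13.05 and 13.26 in every mouse, as a liver sample should show. One of the 8, Trf, had a mean of only 7.15 on its probe set, near the median of an array. RNA quality, read as how far the 3' signal exceeded the 5' signal on Gapdh and beta-actin controls (higher means more degraded), averaged 0.478 and 0.477 in the 2-d groups and 0.244 and 0.273 in the 4-wk groups. Diets were compared by limma with all 4 groups fitted together, and the words rose, fell and changed are kept for an adjusted p (Benjamini-Hochberg over 45037) under 0.05.

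Promoters of all 10 members were found in the RefSeq table (build GRCm38.p6), as 14 windows of 250 bases before and 50 after a transcription start. Cyp7a1 had no entry. The Nr0b2 window is shown because Nr0b2 differed most between the diets among the nuclear receptors, and because LRH-1 is known to bind there. It lies on the + strand at chr4:133553126-133553425, and capitals mark the match to CAAGGNCA, the extended half-site of LRH-1, read on the same strand with its first base at -201. The Hnf4a window is the one of 2 that holds ATTGAT, the core of the HNF6 motif, and is shown because Onecut1 varied with several members. It lies on the + strand at chr2:163506607-163506906, with the match in capitals on the opposite strand at -59.
Nr0b2: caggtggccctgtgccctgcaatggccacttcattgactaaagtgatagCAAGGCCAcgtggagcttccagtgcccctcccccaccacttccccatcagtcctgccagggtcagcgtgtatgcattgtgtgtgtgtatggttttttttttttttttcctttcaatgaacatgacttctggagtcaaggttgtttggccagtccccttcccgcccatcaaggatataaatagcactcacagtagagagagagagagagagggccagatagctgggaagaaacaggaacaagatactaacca
Hnf4a: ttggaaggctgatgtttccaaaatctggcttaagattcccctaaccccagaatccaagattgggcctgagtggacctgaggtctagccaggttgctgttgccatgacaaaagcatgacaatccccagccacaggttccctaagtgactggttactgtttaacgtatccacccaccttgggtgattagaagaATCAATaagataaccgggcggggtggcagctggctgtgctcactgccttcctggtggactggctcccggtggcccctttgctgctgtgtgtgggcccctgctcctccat
Both strands were searched in each window. CAAGGNCA occurred in 1 of the 14 member windows and in 6.71% of 32851 windows of all genes, and ATTGAT occurred in 1 and in 7.54%. GTAAACA, the FOXO motif, was in 0 member windows and 3.65% of all, and CAAAGNNCA, an HNF4 motif, in 0 and 6.36%. A match is a run of letters and does not show binding.

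Cyp7a1, the gene around which the factors were chosen, lay higher in HPHC liver at both durations. On its brightest probe set (1438743_at) the lowest, median and highest levels were 9.72, 10.86 and 11.60 in HFHC mice after 2-d, and 10.18, 11.64 and 12.14 in HPHC mice. After 4-wk they were 9.24, 10.11 and 11.33 in HFHC mice and 9.59, 11.40 and 12.18 in HPHC mice. The diet groups overlapped, and 10 of 11 HPHC mice at 2-d and 11 of 12 at 4-wk lay above the HFHC median. The difference, HPHC minus HFHC, was 0.75 at 2-d (standard error 0.25, p = 0.00472) and 0.98 at 4-wk (standard error 0.25, p = 0.000246). The other probe set (1422100_at) gave 0.86 (p = 0.017) and 1.08 (p = 0.00245). None of these passed limma over all probe sets (adjusted p = 1 at 2-d and 0.999 at 4-wk), while both probe sets passed at both durations with a pooled error across probe sets, an approximation of the test in the study's methods.

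No member changed with diet at either duration by limma. Among all probe sets, 0.0133% passed limma at 2-d and 0% at 4-wk, and the share at an unadjusted p under 0.05 was 3.52% at 2-d and 2.76% at 4-wk. Of the 23 member probe sets, 0 had an unadjusted p under 0.05 at 2-d and 3 had one at 4-wk, all of them lower in HPHC mice (Nr0b2 and both of Nr1i2). From these same arrays the study had listed Nr0b2 and Nr1i2 as differentially regulated at 4-wk. It also reported higher Onecut1 mRNA there, all by its own test at an unadjusted p under 0.001. The members' counts at 4-wk are therefore no independent test. The median difference over the 23 was 0.01 at 2-d and 0.01 at 4-wk, against 0.01 and -0.01 over all probe sets. Of the 23, 14 were higher at 2-d and 12 at 4-wk (60.9% and 52.2%, against 53.3% and 42.9% of all). Ordinary one-way ANOVA called 0 members at either duration by adjusted p, among 0% of all probe sets. At the unadjusted threshold of 0.001 in the methods it also called 0 members, among 0.0688% of all at 2-d and 0.0711% at 4-wk. With the pooled error, 3 member probe sets passed at 4-wk (Nr0b2 and both of Onecut1) among 0.573% of all, and 0 passed at 2-d among 0.691% of all. Nr1i2 did not pass with it at 4-wk (p = 0.00997 and 0.0011 from the pooled error), so it does not match the study's list in full. The ranges of the diet groups overlapped for all 23 member probe sets at both durations, and groups without overlap were found for 0.00444% of all probe sets at 2-d and 0% at 4-wk.

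**Figure D1:**
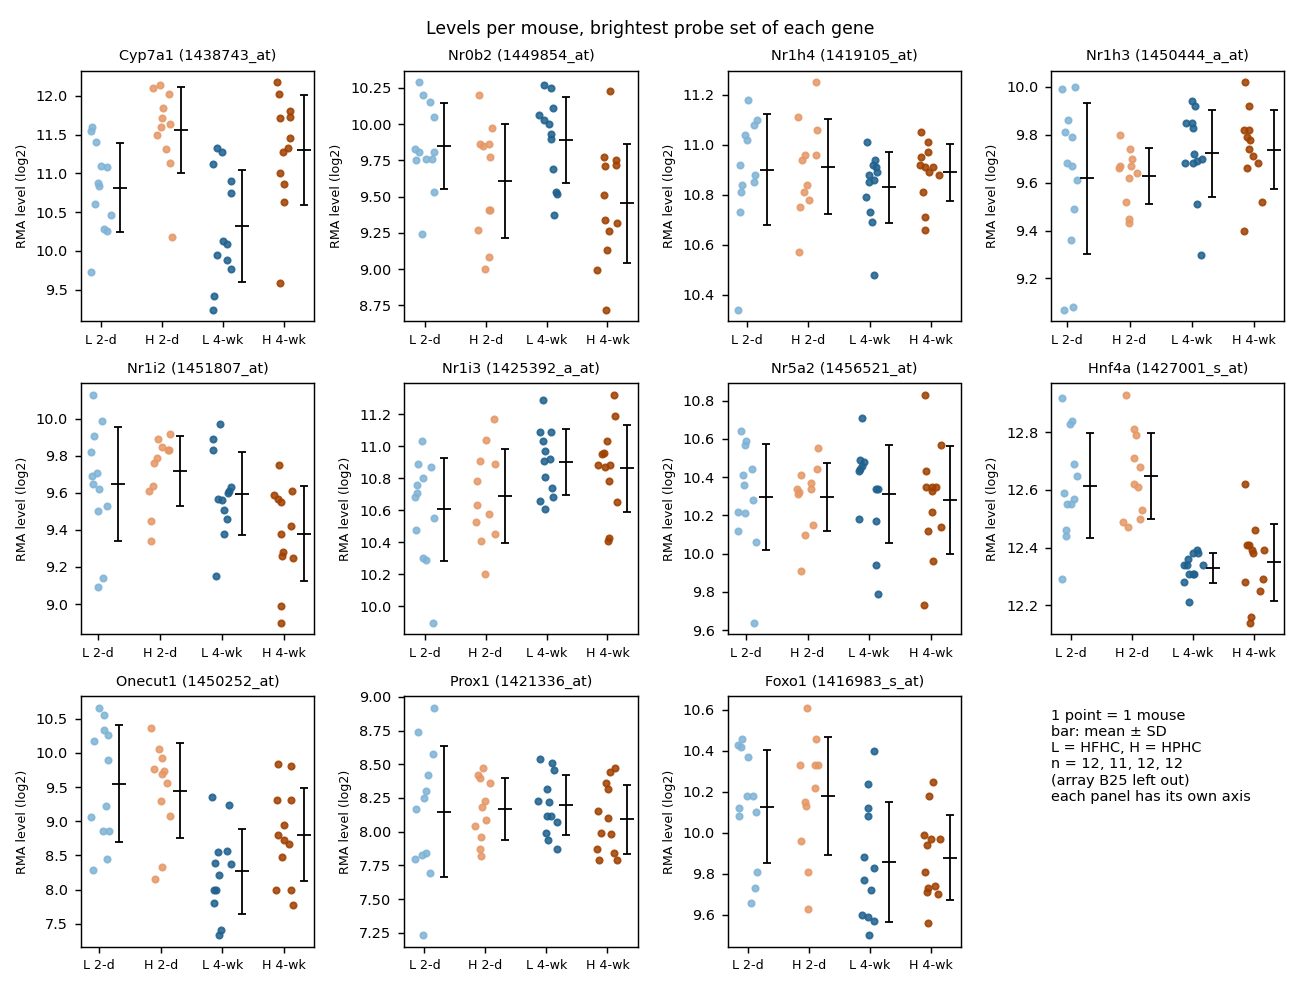
RMA level (log2) of each mouse on the brightest probe set of Cyp7a1 and of each member, in the groups HFHC (L) and HPHC (H) after 2-d and 4-wk, with the mean ± SD as a bar (n = 12, 11, 12, 12). Cyp7a1 sits higher in HPHC mice at both durations, Nr0b2 sits lower in HPHC mice at 4-wk with 11 of 12 below the HFHC median, and Hnf4a and Onecut1 sit lower at 4-wk than at 2-d.

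Nr0b2, the repressor SHP, lay lower in HPHC liver after 4-wk. After 2-d its lowest, median and highest levels were 9.24, 9.81 and 10.29 in HFHC mice and 9.0, 9.77 and 10.20 in HPHC mice. After 4-wk they were 9.37, 9.97 and 10.27 in HFHC mice and 8.72, 9.43 and 10.23 in HPHC mice. At 4-wk 11 of 12 HPHC mice were below the HFHC median and 6 were below every HFHC mouse, with B45 the exception at 10.23. The difference was -0.43 at 4-wk (standard error 0.14, 95% interval -0.71 to -0.16, p = 0.0025), or 0.740 of the HFHC level, and adjusted p = 0.999 from limma. At 2-d it was -0.24 (standard error 0.14, p = 0.0900). The diet effects at 2-d and 4-wk did not differ beyond their error (difference -0.19, p = 0.327). In order of the mean, the groups ran from HPHC 4-wk (9.45 ± 0.41, SD, n = 12) through HPHC 2-d (9.61 ± 0.39, SD, n = 11) and HFHC 2-d (9.85 ± 0.29, SD, n = 12) to HFHC 4-wk (9.89 ± 0.30, SD, n = 12), and neighbours in this order differed by less than those SDs.

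Nr1h4, which encodes FXR, showed no difference between diets beyond its error. Its level was 10.90 ± 0.22 (SD, n = 12) and 10.91 ± 0.19 (SD, n = 11) after 2-d, and 10.83 ± 0.14 (SD, n = 12) and 10.89 ± 0.11 (SD, n = 12) after 4-wk, each pair in the order HFHC, HPHC. The diet difference was 0.01 at 2-d (95% interval -0.13 to 0.16) and 0.06 at 4-wk (-0.08 to 0.20), and neither p was under 0.05 (0.862 and 0.400). Of 10 other genes listed as responding to FXR, 8 were lower at 2-d and 7 at 4-wk (median -0.04 and -0.06), and 0 passed limma. At each duration 1 had an unadjusted p under 0.05, against 3.52% of all probe sets at 2-d and 2.76% at 4-wk. These were Osgin1, an oxidative stress gene (-0.51, p = 0.00798 at 2-d), and Slc51b, a subunit of the basolateral bile acid transporter (-0.20, p = 0.0206 at 4-wk). Abcb11, the canalicular bile salt export pump, differed by -0.04 and -0.00167 (p = 0.705 and 0.986).

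Nr1i2, the xenobiotic receptor PXR, lay lower in HPHC liver at 4-wk and not at 2-d. On its brightest probe set (1451807_at) the lowest, median and highest levels at 4-wk were 9.15, 9.59 and 9.97 in HFHC mice and 8.90, 9.40 and 9.75 in HPHC mice, and 9 of 12 HPHC mice lay below the HFHC median. At 2-d they were 9.09, 9.67 and 10.13 against 9.34, 9.79 and 9.92. The difference at 4-wk was -0.22 (standard error 0.10, p = 0.0333), and -0.26 (standard error 0.10, p = 0.0149) on 1425723_at, while at 2-d the values were 0.07 and 0.10. The change in the diet effect from 2-d to 4-wk was -0.29 (p = 0.0479) and -0.36 (p = 0.018). Among all probe sets 0% passed limma for this change and 1.63% had an unadjusted p under 0.05, and adjusted p was 1 for both Nr1i2 probe sets. With array B25 included, 0 member probe sets had an unadjusted p under 0.05 for this change. The 2 probe sets varied together within groups (r = 0.858 over 47 mice), so they are not separate evidence.

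Nr1i3 (CAR) differed by 0.09 at 2-d (95% interval -0.14 to 0.31) and -0.04 at 4-wk (-0.25 to 0.18). Of 15 measured genes of the CAR and PXR response, 10 were higher at 2-d and 8 were lower at 4-wk, and 0 passed limma. At an unadjusted p under 0.05, 4 were higher at 2-d, and 2 were higher and 1 lower at 4-wk. The share of all probe sets at that threshold was 3.52% at 2-d and 2.76% at 4-wk. At 2-d Gsta2 and Gstt3, glutathione transferases, differed by 0.78 (p = 0.0173 from limma) and 0.49 (p = 0.00496), and Slco1a4 by 0.38 (p = 0.0135). Fmo5, a flavin monooxygenase, differed by 0.25 (p = 0.0132) at 2-d and -0.24 (p = 0.0164) at 4-wk. The 2 that were higher at 4-wk were Gsta2 (0.69, p = 0.0303) and Gstm3 (0.23, p = 0.0135). Cyp2b10, of the same list, differed by 0.11 at 2-d and -0.18 at 4-wk (p = 0.472 and 0.211 from limma). For Cyp3a11 the values were -0.007 and -0.09 (p = 0.942 and 0.299 from limma).

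Nr1h3 (LXR-alpha) stayed within 0.02 of equality between diets, at 0.01 after 2-d (95% interval -0.16 to 0.18) and 0.02 after 4-wk (-0.15 to 0.19). Of 9 genes of the LXR response, 6 were lower at 4-wk (median -0.12). There 3 had an unadjusted p under 0.05, all lower, against 2.76% of all probe sets. These were the sterol transporters Abcg5 (-0.36, p = 0.00511), Abca1 (-0.16, p = 0.0177) and Abcg8 (-0.23, p = 0.0269), and adjusted p was 0.999 for each. At 2-d the same transporters differed by 0.05, 0.03 and 0.04.

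Onecut1, which encodes HNF6, had the widest spread between mice among the members. After 4-wk the lowest, median and highest levels on 1450252_at were 7.33, 8.29 and 9.36 in HFHC mice and 7.78, 8.77 and 9.84 in HPHC mice, and 9 of 12 HPHC mice lay above the HFHC median. The difference at 4-wk was 0.54 (standard error 0.27, p = 0.0561) and 0.52 (standard error 0.28, p = 0.0689) on 1421447_at, the largest in size of any member and within the spread between mice by limma. At 2-d the 2 probe sets gave -0.10 and 0.05, and array weights over all 48 arrays moved the first to -0.35. The pooled error, which takes the spread of probe sets of similar level in place of its own, called both at 4-wk.

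The other activators and the corepressor showed no difference between diets beyond their error. The diet difference of Nr5a2 (LRH-1) on 1456521_at was 0.00 at 2-d and -0.03 at 4-wk, with 95% intervals of -0.21 to 0.21 and -0.23 to 0.17. Hnf4a on 1427001_s_at differed by 0.03 (-0.08 to 0.15) and 0.02 (-0.10 to 0.14), and the largest value among its other probe sets was 0.16 (1427000_at, 4-wk, p = 0.123). All 3 Prox1 probe sets were lower at 4-wk, with differences of -0.11, -0.12 and -0.23 and a smallest p of 0.133. For Foxo1 the values ranged from -0.07 to 0.13 at 2-d and from -0.13 to 0.02 at 4-wk over 4 probe sets.

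**Figure D2:**
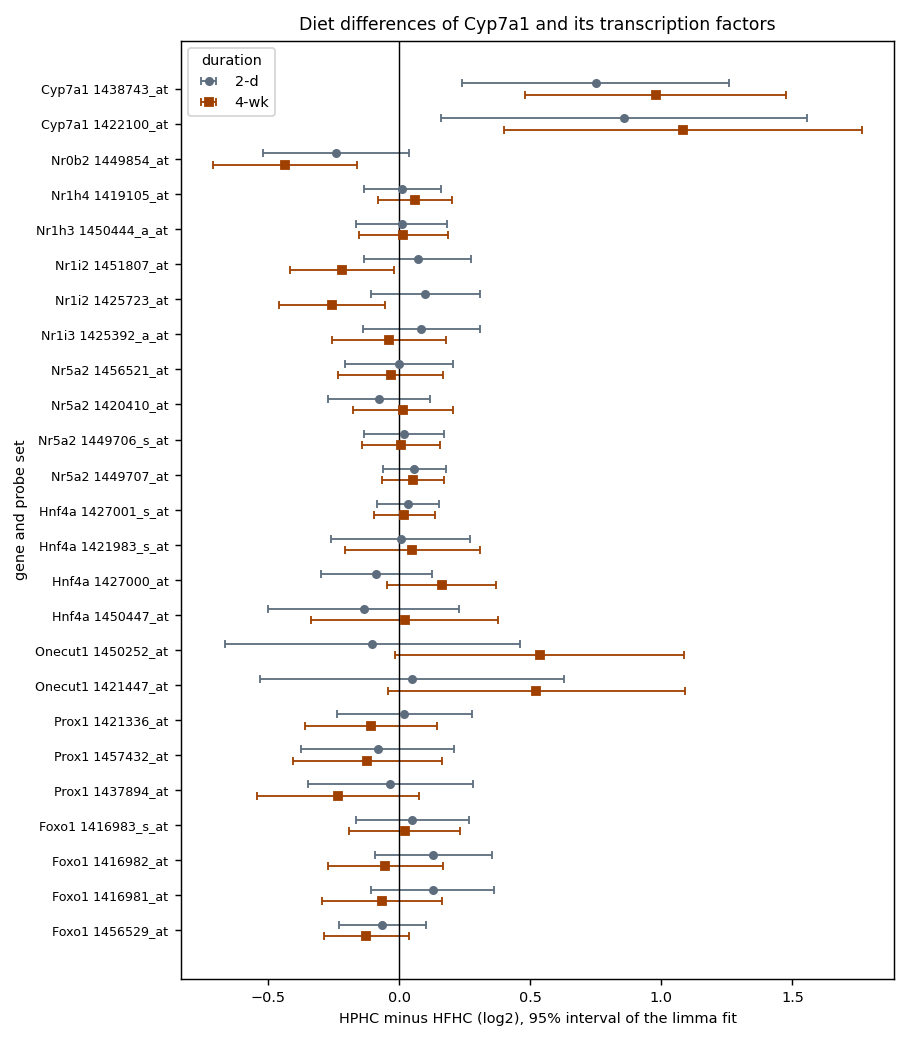
Difference HPHC minus HFHC (log2) at 2-d and 4-wk for the 2 Cyp7a1 and 23 member probe sets, with 95% intervals of the limma fit. Both Cyp7a1 probe sets lie right of 0 at both durations, Nr0b2 and Nr1i2 lie left of 0 at 4-wk (-0.43, -0.22 and -0.26), and the intervals of all other members include 0.

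Markers of liver macrophages lay lower in HPHC mice, and 0 of them passed limma (adjusted p = 1 for each at 2-d and 0.999 at 4-wk). Of 14 Kupffer cell and macrophage markers, 13 were lower in HPHC mice at 2-d (median -0.12) and 13 at 4-wk (median -0.33). At 4-wk 6 had an unadjusted p under 0.05, led by Marco (-0.62, p = 0.00189) and Adgre1 (-0.38, p = 0.00473), against 2.76% of all probe sets. The mean level of the list per mouse ran from 8.94 to 10.31 in HFHC mice and from 8.32 to 9.84 in HPHC mice at 4-wk, and the part of this in the values of Nr0b2, Nr1i2 or Onecut1 was not tested. Cps1, one of the hepatocyte markers, was higher at 2-d (0.23, p = 0.0013). Pdgfrb, a stellate cell marker, was lower at 2-d (-0.16, p = 0.0481), and the pancreatic gene Prss2 was higher (0.17, p = 0.0472), while no other marker of those cells, of cholangiocytes, endothelium, adipocytes or lymphocytes had an unadjusted p under 0.05 at either duration. In bulk liver, fewer cells of a type and less RNA per cell cannot be told apart.

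Onecut1, Hnf4a, Nr1i2 and Foxo1 each had a probe set that changed between the durations. From 2-d to 4-wk, 3 member probe sets changed in HFHC mice, among 6.87% of all probe sets, and 4 changed in HPHC mice, among 6.69%. At an unadjusted p under 0.05 these counts were 10 and 8, among 17.3% and 18.5% of all. Onecut1 (1450252_at) fell by 1.28 on the log2 scale in HFHC mice (standard error 0.27, adjusted p = 0.0013 from limma), with 12 of 12 4-wk mice below the 2-d median and 6 below every 2-d mouse. In HPHC mice its difference was -0.65 (adjusted p = 0.182). Nr1i2 (1451807_at) fell by 0.34 (adjusted p = 0.0295) and Foxo1 (1416981_at) fell by 0.37 (adjusted p = 0.0447) in HPHC mice, where the corresponding values in HFHC mice were -0.05 and -0.17. No other probe set of Onecut1, Nr1i2 or Foxo1 passed. In HFHC and HPHC mice Onecut1 on 1421447_at gave -0.71 and -0.23, and Nr1i2 on 1425723_at gave 0.165 and -0.19. Foxo1 gave -0.27 and -0.30 on 1416983_s_at, 0.07 and -0.11 on 1416982_at, and 0.21 and 0.15 on 1456529_at.

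The Hnf4a probe sets went opposite ways over time. Hnf4a on 1427001_s_at fell by 0.29 in HFHC mice (adjusted p = 0.00068) and by 0.30 in HPHC mice (adjusted p = 0.000565). On 1450447_at it rose by 0.70 (adjusted p = 0.00786) and 0.85 (adjusted p = 0.00137). On 1421983_s_at the values were 0.29 and 0.33, and on 1427000_at -0.26 and -0.01, none of which passed. Within groups 1450447_at and 1421983_s_at varied together (r = 0.911), and 1427001_s_at went weakly against both (r = -0.253 and -0.206). RNA quality moved with these values: its within-group r was -0.853 for 1450447_at, -0.803 for 1421983_s_at, 0.436 for 1427001_s_at and -0.225 for 1427000_at. 

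With RNA quality as a covariate, 0 member probe sets passed for duration in either diet by limma, among 1.03% (HFHC) and 1.38% (HPHC) of all probe sets, and the size of the differences moved unequally. In HPHC mice Nr1i2 on 1451807_at was -0.31 (against -0.34 without the covariate, adjusted p = 0.268) and Foxo1 on 1416981_at was -0.31 (against -0.37, adjusted p = 0.396). Onecut1 in HFHC mice was -0.85 (against -1.28, p = 0.0096, adjusted p = 0.328). Hnf4a on 1427001_s_at was -0.18 in HFHC mice and -0.21 in HPHC mice (adjusted p = 0.299 and 0.0958). The Hnf4a probe sets that had been higher at 4-wk moved most, with 1450447_at at -0.02 and 0.23 and 1421983_s_at at -0.19 and -0.08 in HFHC and HPHC mice, and 1427000_at was at -0.37 and -0.10. Under the covariate all 4 Hnf4a probe sets were lower at 4-wk in HFHC mice and 3 of 4 in HPHC mice, and none passed. Without it they pointed both ways. The measure itself differed by duration, at 0.478 and 0.477 after 2-d and 0.244 and 0.273 after 4-wk (HFHC, HPHC). As a covariate it therefore also takes out part of any duration difference, and the 2 cannot be told apart.

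**Figure D3:**
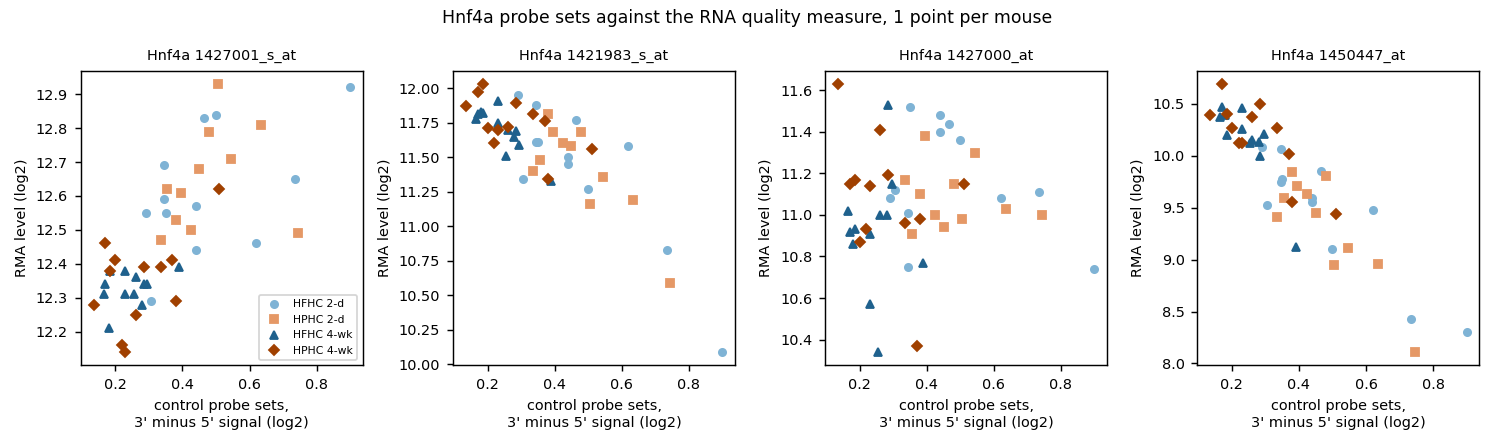
RMA level (log2) of the 4 Hnf4a probe sets against the RNA quality measure (log2, 3' less 5' control signal, higher is more degraded), with 1 point for each of 47 mice. Levels of 1450447_at and 1421983_s_at are lower where the measure is higher (within-group r of -0.853 and -0.803), those of 1427001_s_at are higher (0.436), and 2-d mice lie further to the right.

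Whether the factors vary with Cyp7a1 from mouse to mouse was tested within each group, so that the diet difference itself plays no part. Pearson's r and Spearman's rho with Cyp7a1 (1438743_at) were computed for 23 probe sets in 4 groups, 92 relations in all, with permutation p-values from 100000 resamples and Benjamini-Hochberg adjustment over the 92. By Pearson's r 0 relations passed (smallest adjusted p = 0.0929) and 8 (8.7%) had an unadjusted p under 0.05, 3 positive and 5 negative. Over all probe sets and the 4 groups this share was 7.81% (10000 resamples), so the members' share is near the background and the relations below are given as values. By Spearman's rho 1 passed, Prox1 (1457432_at) in HFHC mice after 4-wk.

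In that group the mice with more Cyp7a1 had less Prox1 on this probe set. Its r was -0.80 (permutation p = 0.00101, adjusted p = 0.0929, n = 12) and its rho -0.88 (permutation p = 0.00046, adjusted p = 0.0423). Without the 2 mice farthest from the median of Cyp7a1, r was -0.76 (permutation p = 0.0112, n = 10). With the other Cyp7a1 probe set it was -0.84 (adjusted p = 0.0294 by permutation). The other Prox1 probe sets gave -0.34 (1421336_at) and -0.12 (1437894_at) in the same mice, and 1457432_at itself gave -0.44, -0.01 and 0.01 in the other groups, in the order HFHC 2-d, HPHC 2-d and HPHC 4-wk.

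Nr0b2 and Cyp7a1 went opposite ways among HPHC mice after 4-wk. Their r there was -0.72 (permutation p = 0.008, adjusted p = 0.197, n = 12) and rho -0.61 (permutation p = 0.0403, adjusted p = 0.406). B45 had the lowest Cyp7a1 and the highest Nr0b2 of the group, and B44 had the lowest Nr0b2. Without the 2 mice farthest from the Cyp7a1 median r was -0.56 (permutation p = 0.0953, n = 10), and the relation no longer had a p under 0.05. In the other groups r was 0.10 (HFHC 2-d), 0.21 (HPHC 2-d) and -0.42 (HFHC 4-wk). The slope of Nr0b2 per log2 unit of Cyp7a1 was 0.05, 0.15 and -0.17 in those groups and -0.42 in HPHC 4-wk mice, and the slopes differed at an unadjusted p of 0.0453 from limma (adjusted p = 0.789).

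Among HPHC mice after 4-wk most members went against Cyp7a1. The r was negative for 19 of 23 probe sets there, with a median of -0.25, while 44.7% of 45035 probe sets had a positive r in that group and their median was -0.08. In the other groups the r was positive for 17 (HFHC 2-d), 18 (HPHC 2-d) and 12 (HFHC 4-wk) of the 23, against 52.8%, 51.5% and 54.7% of all probe sets. Members share probe set families and arrays, so these counts are a description. Besides Nr0b2, 3 probe sets had an unadjusted permutation p under 0.05 in this group. Foxo1 on 1456529_at had an r of -0.73 (permutation p = 0.00625) and a rho of -0.65 (permutation p = 0.0256). Hnf4a on 1427000_at had an r of -0.72 (permutation p = 0.0133) and a rho of -0.60 (permutation p = 0.0442). Nr1i2 on 1451807_at had an r of -0.60 (permutation p = 0.0364) and a rho of -0.66 (permutation p = 0.0223). Without the 2 farthest mice these r were -0.49, -0.29 and -0.72, with permutation p of 0.150, 0.421 and 0.0187. Leaving out those mice also narrows the range of Cyp7a1.

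The remaining relations at this threshold were positive and all of Foxo1, the mediator of fasting signals in the liver. On 1416982_at r was 0.69 (permutation p = 0.0134, rho 0.70 with p = 0.0204) in HPHC 2-d mice and 0.59 (permutation p = 0.0459, rho 0.54 with p = 0.0750) in HFHC 4-wk mice. On 1416981_at it was 0.71 (permutation p = 0.00858, rho 0.62 with p = 0.0351) in HFHC 4-wk mice. Without the 2 farthest mice these were 0.43, 0.44 and 0.63, and of these the last alone kept a permutation p under 0.05 (0.0464). In HPHC 4-wk mice 1416981_at went the other way, with an r of -0.42 (permutation p = 0.169, rho -0.46 with p = 0.134), and -0.85 (permutation p = 0.00079, n = 10) without the 2 farthest mice, the largest trimmed r in size among the 92. No adjusted p among the 92 passed for Foxo1, the smallest being 0.197 by permutation.

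**Figure D4:**
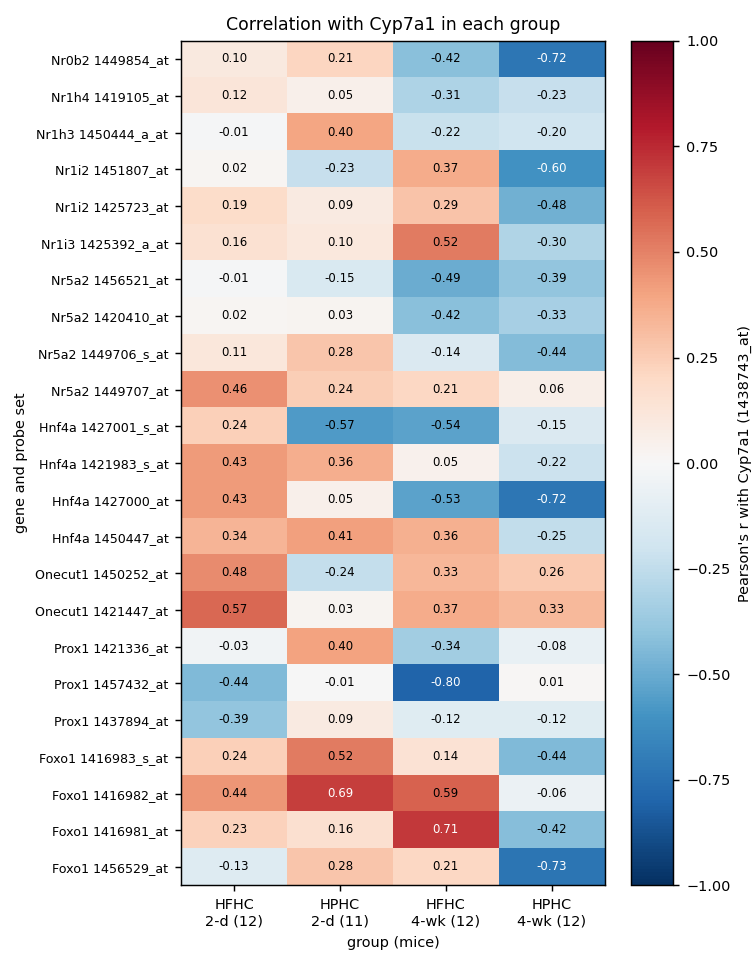
Pearson's r of each of the 23 member probe sets with Cyp7a1 (1438743_at) across the mice of each group, red for positive and blue for negative, with n in brackets. The HPHC 4-wk column is mostly negative (19 of 23), and the deepest cell is Prox1 1457432_at in HFHC 4-wk mice at -0.80.

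Over the 4 groups together no member passed. Limma with a common slope on Cyp7a1 called 0 members, among 0.00222% of 45035 probe sets, and at an unadjusted p under 0.05 it gave 5 members among 8.86% of all. Higher with Cyp7a1 were Foxo1 on 1416982_at (within-group r = 0.43, p = 0.00244, adjusted p = 0.421) and Onecut1 on 1421447_at (r = 0.33, p = 0.0171). Lower with Cyp7a1 were Prox1 on 1457432_at (r = -0.31), Hnf4a on 1427000_at (-0.30) and Nr5a2 on 1456521_at (-0.29). The r of Foxo1 on 1416982_at exceeded that of 99.8% of all probe sets, and that of Onecut1 on 1421447_at exceeded 98.5%. Rank correlation gave 0.35 (permutation p = 0.0207) for Foxo1 and 0.34 (permutation p = 0.0237) for Onecut1. Without the 2 farthest mice of each group (39 mice left) r was 0.24 (permutation p = 0.173) and 0.29 (permutation p = 0.0751), with neither p under 0.05. With RNA quality as a covariate the slope of this Foxo1 probe set was 0.16 (p = 0.00162) against 0.18 without it. When Cyp7a1 was read through 1422100_at, 2 member probe sets passed, Foxo1 on 1416982_at (adjusted p = 0.0136 from limma) and Hnf4a on 1450447_at (adjusted p = 0.0358). RNA quality correlated within groups with this Cyp7a1 probe set (r = -0.411) and with those of Foxo1 (-0.607) and Hnf4a (-0.853), against -0.116 for 1438743_at, and its part in these calls was not tested. The share of all probe sets that passed with 1422100_at was not counted, so the 2 calls are not set against the whole array. With 1438743_at, the other probe sets of the genes named above gave weaker or opposite within-group r. Foxo1 gave 0.12 on 1416983_s_at, its brightest, 0.19 and -0.18, and Onecut1 gave 0.23 on 1450252_at, its brightest. Prox1 gave -0.04 and -0.16, Hnf4a gave -0.15, 0.20 and 0.21, and Nr5a2 gave -0.21, -0.14 and 0.24. For Nr1h4 the within-group r was -0.07 (95% interval -0.36 to 0.23), for Nr1h3 -0.06 (-0.35 to 0.24) and for Nr0b2 -0.27 (-0.53 to 0.03). Slopes that differ between groups passed limma for 0 members and 0% of all probe sets, and had an unadjusted p under 0.05 for 3 members among 6.25% of all.

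**Figure D5:**
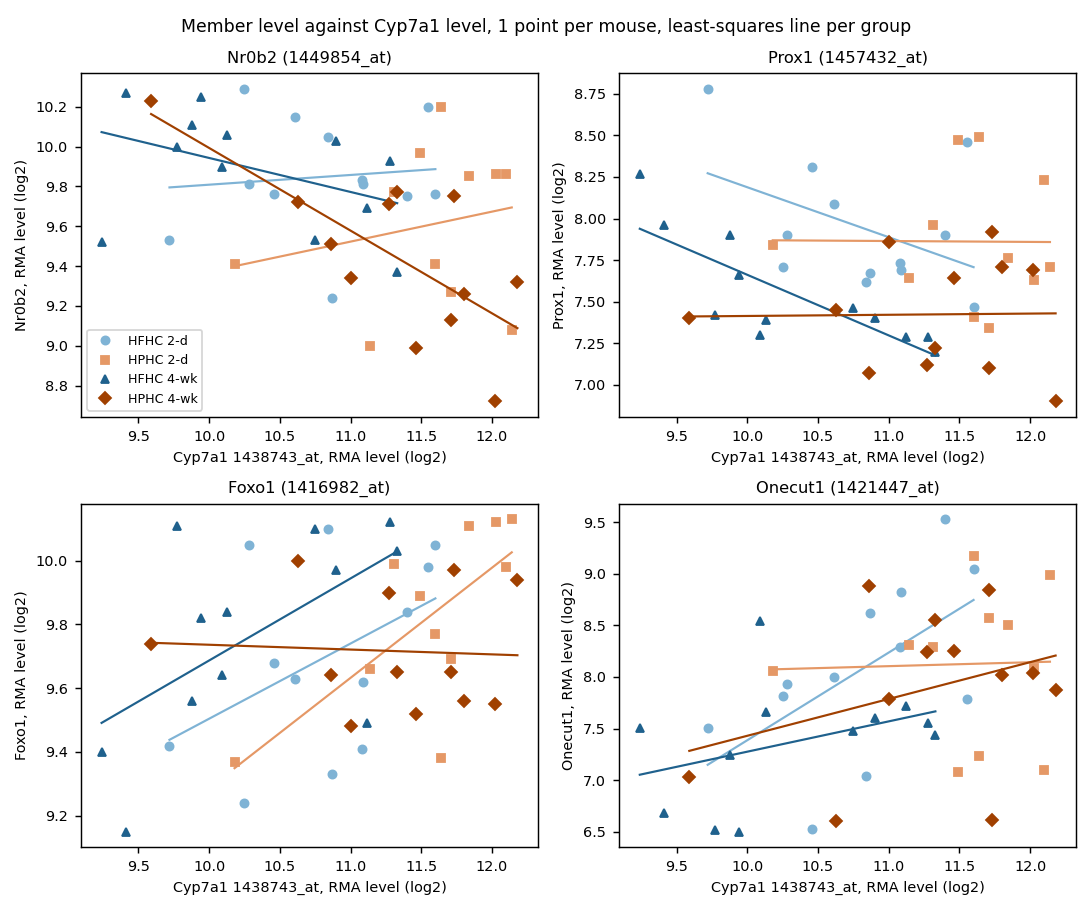
Level (log2) of Nr0b2, Prox1, Foxo1 and Onecut1 on the named probe set against that of Cyp7a1, with 1 point per mouse and a least-squares line per group; genes and probe sets were chosen after the values were seen. Nr0b2 slopes down among HPHC 4-wk mice (r = -0.72), Prox1 among HFHC 4-wk mice (r = -0.80), and Foxo1 slopes up in all groups but HPHC 4-wk.

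The factors were also set against one another. Of 45 pairs of members, taken on the brightest probe sets with group means removed, 25 passed a permutation test within groups (100000 resamples, Benjamini-Hochberg over the 45), 21 positive and 4 negative. The weakest of them had an r of 0.331 in size, and 31% of relations of a member with any other gene's probe set were at least that strong. That share ran from 7.31% for Nr0b2 to 55.1% for Nr1h3 and 56.6% for Nr5a2, so much of the array varies with these members. The brightest member probe sets all lay above the median level. Among probe sets above it the share was higher for every member, from 10% for Nr0b2 to 67.1% for Nr5a2 and 67.5% for Nr1h3. The same size of r with Cyp7a1 was reached by 5.03% of other probe sets and by 2 of the 23 member probe sets. By Spearman's rho 14 pairs passed, and with RNA quality as a covariate 20.

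Nr1i2 and Foxo1 had the highest r, at 0.71 (rho 0.75, n = 47, permutation p = 1e-05 for both, the smallest that 100000 resamples can give), followed by Nr1h3 and Nr5a2 at 0.70 (rho 0.54) and Nr1h3 and Prox1 at 0.63 (rho 0.51). Leaving out the 2 mice farthest from the median of the first gene of each pair gave 0.65, 0.66 and 0.60. Nr0b2 correlated with Nr1h4 at 0.49 (adjusted p = 0.00152), while its rho was 0.29 (adjusted p = 0.107), both by permutation. Each of the 4 negative pairs included Onecut1. Its r was -0.65 with Prox1 (rho -0.66), -0.43 with Nr1i3 (rho -0.41), -0.41 with Nr0b2 (rho -0.44) and -0.34 with Foxo1 (rho -0.32, which did not pass). Onecut1 and Prox1 had an r of -0.70, -0.75, -0.49 and -0.66 in the groups HFHC 2-d, HPHC 2-d, HFHC 4-wk and HPHC 4-wk. Onecut1 and Hnf4a had an r of 0.38 (adjusted p = 0.0357 by permutation) and a rho of 0.24 (adjusted p = 0.176). In the same order of groups their r was 0.59, 0.40, -0.16 and 0.23. With RNA quality as a covariate the r over the 4 groups was 0.27, and without arrays A01, A09 and A24 it was 0.26.

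Of 35 other known regulators of Cyp7a1, 29 were measured, and none changed with diet by limma. At 2-d 18 of the 29 were higher (median 0.04) and 3 had an unadjusted p under 0.05, against 3.52% of all probe sets. These were Srebf2, the activator of cholesterol synthesis (-0.18, p = 0.00355), Nfil3, a repressor in the circadian system (-0.39, p = 0.0158), and Dbp, a circadian activator of Cyp7a1 (0.30, p = 0.0497). At 4-wk 15 were higher (median 0.01) and 0 had an unadjusted p under 0.05, against 2.76% of all probe sets. Of the 29, 20 had a negative within-group r with Cyp7a1. For the slope 3 of the 29 had an unadjusted p under 0.05, a share near the 8.86% of all probe sets. Among these 3 was Rora, a nuclear receptor that activates Cyp7a1, at -0.47 (p = 0.000641, adjusted p = 0.328 from limma).

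Among 13 genes of bile acid synthesis, Cyp8b1, the sterol 12-alpha-hydroxylase that SHP also represses, was higher in HPHC mice at 4-wk. Its level was 12.06 ± 0.27 (SD, n = 12) in HFHC mice and 12.60 ± 0.21 (SD, n = 12) in HPHC mice, a difference of 0.54 (p = 0.000595, adjusted p = 0.999 from limma), and 0.12 at 2-d (p = 0.438). It was the only one of the 13 at an unadjusted p under 0.05 at either duration. Of all probe sets 3.52% were under it at 2-d and 2.76% at 4-wk. Mttp, listed as responding to HNF4A, was lower at 2-d (-0.22, p = 0.00103), and Tat, listed for FOXO1, was higher (0.34, p = 0.0089), while the other 8 of 9 and 9 of 10 genes of these lists were above p = 0.05 at 2-d. Of 17 clock genes 13 were higher at 2-d and 7 at 4-wk, and 0 passed.

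The genes most like Cyp7a1 from mouse to mouse were none of its listed regulators. Among single-symbol probe sets above the median level, the highest within-group r over 47 mice belonged to Gpcpd1 (0.61), Coq10b (0.55), Klf1 (0.55), Fdx1 (0.53) and Hrg (0.53). The most negative belonged to Cd9 (-0.64), Nedd4l (-0.59), Gtf2ird1 (-0.59), Rnd2 (-0.57) and Tubb2a (-0.56). Of these Cd9 alone passed limma (adjusted p = 0.0334), with r between -0.43 and -0.81 in the 4 groups.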

How the data were processed

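Expression was read from 48 livers on Affymetrix Mouse arrays, 1 per mouse. The deposited log2 values are the authors' RMA output, whose log base was inferred from how large they are. Groups came from the labels, and HPHC was matched to the high-protein diet by its letter P. The members and gene lists were chosen with earlier results of these data known. Probe sets were named from the platform annotation (34945 with 1 symbol, 932 with several, 9160 with none), and 64 controls were left out. B25 was left out as in the methods. The 4 group means were estimated with limma 3.58.1 (R 4.3.3, eBayes with a trend), two-sided, with Benjamini-Hochberg adjustment over all 45037 probe sets. Slopes on Cyp7a1 (1438743_at, the brighter probe set) were fitted likewise over 45035. Correlations used Python 3.11.15 and NumPy 2.4.6 with 100000 permutations, and 95% intervals of r used Fisher's z. The pooled error used the 200 probe sets nearest in mean level, in place of the study's Global Error Assessment. RNA quality was the mean 3' minus 5' signal of 2 controls. The procedure was tested on simulated data. Promoters came from RefSeq (GRCm38.p6). Genes named were all members, up to 4 genes of each list with the smallest p, and the 5 genes most and least like Cyp7a1. Abcb11, Rora, Cyp2b10, Cyp3a11 and Trf were added after their values were seen. The labels number the mice but tie no numbers across groups, and p-values measure the spread between mice. Those of the pooled error are the exception, since it takes the spread of probe sets of similar level in place of a probe set's own.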

Additional observations from a re-analysis of the deposited data

Results flagged for a closer look

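The diet effect of Nr1i2 at 4-wk differed from that at 2-d by -0.29 on 1451807_at (p = 0.0479 from limma, in the order 4-wk minus 2-d) and by -0.36 on 1425723_at (p = 0.018), with 9 of 12 HPHC mice below the HFHC median at 4-wk and 4 and 3 of 11 at 2-d. Neither passed adjustment over all probe sets, and with B25 included neither had an unadjusted p under 0.05. Slopes on Cyp7a1 differed between the 4 groups at an unadjusted p of 0.0453 for Nr0b2 (slopes of 0.05, 0.15, -0.17 and -0.42 in HFHC 2-d, HPHC 2-d, HFHC 4-wk and HPHC 4-wk mice), 0.00651 for Hnf4a on 1427000_at (0.20, 0.01, -0.21 and -0.31) and 0.0321 for Foxo1 on 1456529_at (-0.05, 0.10, 0.04 and -0.24). None of these passed adjustment either (adjusted p of 0.789 for Nr0b2, 0.755 for Hnf4a and 0.789 for Foxo1 from limma), and the cause was not tested. Groups of 11 and 12 mice were too large for the test of single outlying mice used here.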

How the results depend on the processing

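No member passed adjustment for a diet effect, or for the difference of diet effects, under any limma setting or ordinary one-way ANOVA. With the pooled error 3 member probe sets passed at 4-wk, and Cyp7a1 passed at 2-d (0.749) and 4-wk (0.978). With array weights over 48 arrays Cyp7a1 passed at 4-wk (1.12, adjusted p = 0.0394 from limma). The count of member probe sets that changed from 2-d to 4-wk in HFHC mice, 3 in the report, was 5 after cyclic loess and 0 with the RNA quality covariate. In HPHC mice, 4 in the report, it was 7 with array weights, 7 in a separate fit and 0 with the RNA quality covariate, under which Nr1i2 (-0.31) and Foxo1 (-0.31) stayed near their size. The share of all probe sets in HFHC and HPHC mice was 6.87% and 6.69% in the report, and 1.03% and 1.38% with that covariate. It was not counted under the other settings, so their counts do not show a rise particular to the members. The RNA quality measure itself differed between the durations, so as a covariate it also takes out part of any duration difference. With the other Cyp7a1 probe set 2 member probe sets passed for the slope and 1 relation within groups passed, and 1 passed by Spearman's rho. The share of all probe sets that passed for that slope was not counted. Of member pairs 14 passed by Spearman's rho, 22 with the mean of all probe sets, and 20 with RNA quality and 29 without A01, A09 and A24; these settings for pairs were chosen after seeing the data, except the mean.

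Diet effects near 0 changed sign. With B25 included these were, at 2-d, Nr1h4 (-0.0242), Nr1h3 (-0.0425), Prox1 (-0.0267) and Foxo1 (-0.0150). Leaving out A01, A09 and A24, which also correlated poorly in the study's quality tests, turned Nr5a2 at 2-d (0.0105) and Nr1h3 (-0.0226) and Foxo1 (-0.0117) at 4-wk. Median centring turned Nr1h3 at 2-d (-0.00053), and cyclic loess turned Nr5a2 at 2-d (0.0108). Array weights turned Nr1h3 at 2-d (-0.0269) and, at 4-wk, Nr1h3 (-0.0228), Hnf4a (-0.000547) and Foxo1 (-0.0376). With the replicate block (each mouse's number in its label as a factor), Nr1h3 (-0.0032), Nr5a2 (0.0135) and Prox1 (-0.0038) at 2-d changed sign, and 4 and 6 member probe sets changed with duration in HFHC and HPHC mice; the numbers do not pair mice across groups (median r of same-numbered mice from -0.101 to 0.265). The causes were not tested, and the share of all probe sets that changed with duration under the block was not counted. Nr0b2 kept its sign under all settings. Of 23 member probe sets 2 lay below the median level of all probe sets (6.79), where signal over background limits precision.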
